A study of Mus musculus with 11 samples.

Results

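The Polycomb group genes and the deubiquitinase genes that act on the same histone mark were followed through all 11 libraries of the series. The set holds 41 genes chosen by name: the subunits of Polycomb repressive complex 2 (PRC2), those of Polycomb repressive complex 1 (PRC1) and the Polycomb repressive deubiquitinase (PR-DUB). All 41 were found by gene name in both tables of counts, among the 31518 genes listed for mouse embryonic stem cells (mESCs) and the 29450 genes listed for mouse embryonic fibroblasts (MEFs). Poly(A) RNA was sequenced from 2 wild-type (WT, Atxn7l3+/+) and 3 Atxn7l3-/- mESC libraries, and from 3 WT and 3 Atxn7l3-/- MEF libraries, all from DBA/2 x C57BL/6 mice. ATXN7L3 is an adaptor protein of the deubiquitylation module that removes ubiquitin from histone H2B. The null allele came from a construct in which loxP sites flank exons 2 to 12 and which was recombined with a deleter strain. Each mESC line was derived from its own blastocyst of a heterozygous intercross, was first kept on feeder cells, and was grown in 15% FCS with LIF, PD0325901 and CH99021, while the MEFs came from individual E10.5 embryos without head and gastrointestinal tract and were grown in 10% FCS. Cell type therefore cannot be told apart from medium, inhibitors and embryonic origin.

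PRC2 places methyl groups on lysine 27 of histone H3 through EZH1 or EZH2, which work together with EED, SUZ12 and the histone-binding proteins RBBP4 and RBBP7. PRC1 is an E3 ubiquitin ligase in which RING1 or RNF2 (RING1B) pairs with a PCGF protein and ubiquitylates histone H2A on lysine 119: canonical PRC1 adds a CBX protein, which reads the methyl mark, and a PHC protein, while variant PRC1 carries RYBP or YAF2 in their place. BAP1 with an ASXL partner forms PR-DUB, which removes ubiquitin from H2A. In embryonic stem cells these complexes are known for holding developmental regulators silent, and several families swap one paralogue for another as cells differentiate.

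The libraries held between 34515342 and 49602605 counts on genes, which places the level of 3 counts at 0.0605 to 0.0869 CPM (counts per 1000000 library counts). CPM were scaled by the trimmed mean of M-values (TMM) over the 11 libraries, and values for a group are given in the order of the library numbers. Atxn7l3 was at 197 and 203 CPM in the WT mESC libraries and at 3.34, 1.61 and 0.833 CPM in the Atxn7l3-/- mESC libraries, but at 86.6, 117 and 104 CPM in the WT MEF libraries and still at 56.5, 55.5 and 73.3 CPM in the MEF libraries labelled Atxn7l3-/- (log2 fold change −0.74, SE 0.21, adjusted p = 0.0715 by edgeR). The transcript was thus nearly absent in Atxn7l3-/- mESCs. In MEFs every library labelled Atxn7l3-/- lay under every WT library, but much of the transcript remained. These counts do not cover the protein, which the study reported as undetectable by Western blot in Atxn7l3-/- cells of both types. The study also reported higher global H2B ubiquitylation in both. Which part of the gene the counts came from cannot be read from them, so the MEF libraries are called by their label below. The 8 mESC markers summed to between 4382 and 5151 CPM in the mESC libraries and to between 44.0 and 99.6 CPM in the MEF libraries. The 9 fibroblast markers summed to between 26.2 and 407 CPM in mESCs and between 7911 and 46548 CPM in MEFs, so the sums matched the labelled cell types. Single fibroblast markers did not all do so. In MEFs labelled Atxn7l3-/- Prrx1 was at 27.9, 6.17 and 341 CPM, against 466, 573 and 485 CPM in WT MEFs. Postn was at 5.95, 2.43 and 174 CPM against 402, 4382 and 528 CPM, and Pdgfrb at 27.3, 2.05 and 278 CPM against 210, 480 and 355 CPM. Of the 9, 7 had a negative and 2 a positive estimate between the MEF groups, and none passed. Within mESCs the fibroblast markers summed to between 26.2 and 102 CPM in WT libraries and between 281 and 407 CPM in Atxn7l3-/- libraries, and Col1a1 and Postn among the 9 passed. Within MEFs, 8 epithelial and mesothelial markers summed to between 15.0 and 38.1 CPM in WT libraries and to between 2519 and 3730 CPM in the libraries labelled Atxn7l3-/-, with Upk3b, a mesothelial gene, at between 1712 and 2304 CPM in the latter. Of the 7 of these markers tested in MEFs 4 were higher (Krt18, Msln, Wt1 and Upk3b), with 5 positive and 2 negative estimates. The sums rested mostly on the mesothelial genes. In the libraries labelled Atxn7l3-/- Msln was at 1196, 479 and 765 CPM and Wt1 at 181, 233 and 114 CPM. The epithelial genes Epcam, Cdh1 and Krt8 were at no more than 0.102, 0.870 and 3.48 CPM there. Of 3 neural markers tested 2 were lower (Map2 and Sox10). Ddx3y and Eif2s3y, both Y-linked, were under 10 CPM in Atxn7l3-/- mESC libraries 1 and 2 and in WT MEF library 3. They were above it elsewhere. Xist was at 49.9, 45.9 and 336 CPM in these libraries, in that order, and at 23.0 CPM or less in the others. Kdm5d, also Y-linked, was under 10 CPM as well in WT mESC library 1 (5.92) and Atxn7l3-/- mESC library 3 (0.586). Ddx3y and Eif2s3y define the Y-linked covariate used below, which was partly confounded with genotype in mESCs. In bulk RNA, fewer cells of a type and less RNA per cell cannot be told apart.

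By the expression rule of the study, a median above 10 normalized counts per kilobase of transcript, 40 of the 41 members were expressed in mESCs and 40 in MEFs, and 39 in both. Asxl3 fell under the limit in mESCs and Scml4, a gene related to Scm, fell under it in MEFs. All 41 members passed the filter on low counts in every comparison.

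**Figure D1:**
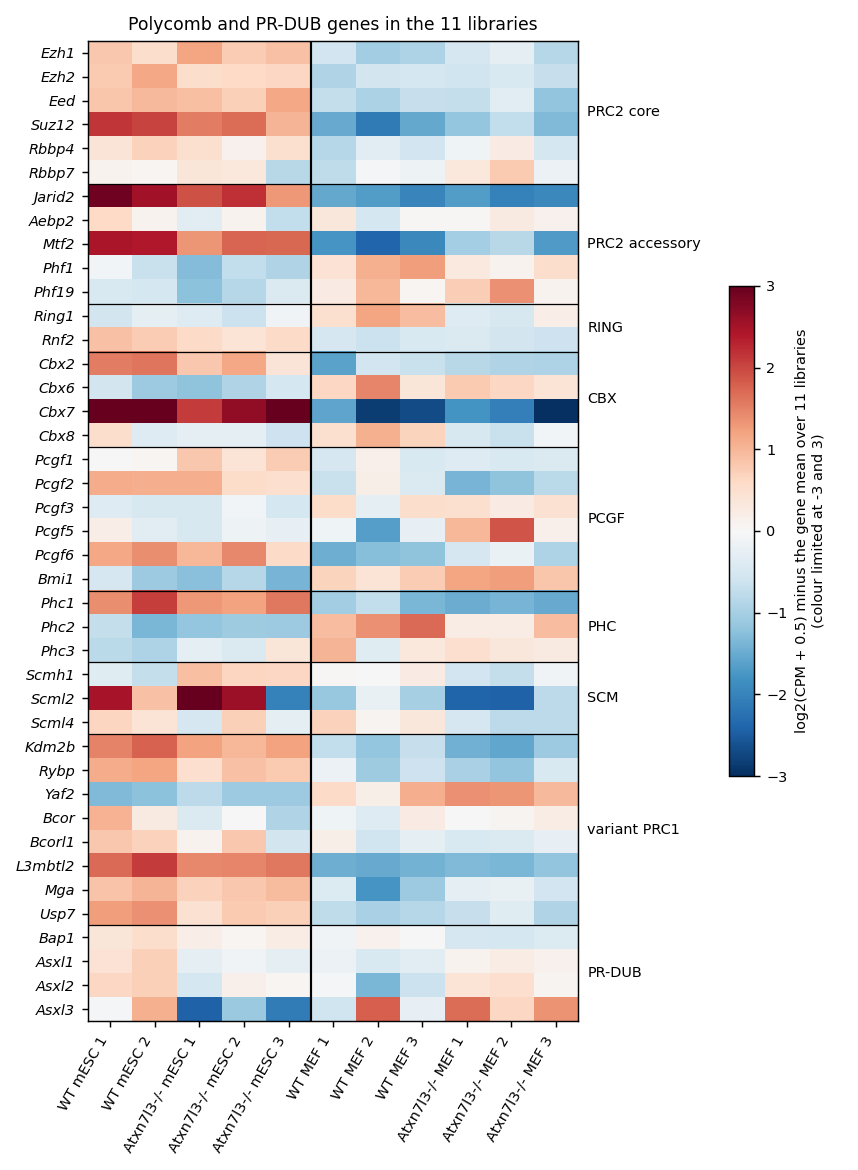
Level of each of the 41 members (rows, grouped by complex) in the 11 libraries (columns), as log2(CPM + 0.5) minus the mean of the gene over the libraries, with red above and blue below that mean and the colour limited at −3 and 3. Suz12, Jarid2, Mtf2 and Cbx7 are red in the 5 mESC columns and blue in the 6 MEF columns, and Phc2, Bmi1 and Yaf2 the reverse.

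The first comparison asked how the Polycomb genes differ between the cell types when both are WT. Of the 41 members, 21 were lower in WT MEFs than in WT mESCs and 9 were higher, at an adjusted p no larger than 0.05 by the quasi-likelihood test of edgeR (Benjamini-Hochberg over the 19326 genes tested). Over all genes tested 53.9% passed, 26.8% higher and 27.1% lower, so the members' share of lower genes (51.2%) lay above the background and their share of higher genes (22.0%) just under it. The median log2 fold change of the members was −0.97 and that of all genes tested was 0.00. The same question in the libraries labelled Atxn7l3-/- gave 22 lower and 9 higher members with a median of −1.05, beside 61% of all genes called, 29.5% higher and 31.5% lower, and a median of −0.10 over all genes. The pair of comparisons share no library: 17 members were lower in both, 6 were higher in both, and Scmh1 was higher in WT MEFs and lower in those labelled Atxn7l3-/-.

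Among the 6 core genes of PRC2, 5 were lower in WT MEFs and Rbbp7 did not pass. Suz12, the subunit that holds the complex together, was at 1043 and 957 CPM in the WT mESC libraries and at 685, 748 and 476 CPM in the Atxn7l3-/- mESC libraries. In MEFs it was at 82, 53.4 and 81.1 CPM in WT libraries and at 106, 141 and 92.9 CPM in those labelled Atxn7l3-/-. Every mESC library was therefore above every MEF library, with a log2 fold change of −3.79 (SE 0.30) between the WT groups and −2.49 (SE 0.27) between the groups labelled Atxn7l3-/-. Ezh2, the methyltransferase of dividing cells, was at 139 and 182 CPM in WT mESCs and at 43.2, 55.2 and 55.5 CPM in WT MEFs (−1.64, SE 0.20, adjusted p = 9.71e-05). Eed, which binds the methyl mark, was at 190.0 and 208 CPM in WT mESCs and at 64.4, 54.1 and 65.6 CPM in WT MEFs (−1.70, SE 0.25, adjusted p = 0.000328). Both were also lower in the MEFs labelled Atxn7l3-/- than in the Atxn7l3-/- mESCs, by 1.16 and 1.65 on the log2 scale. Ezh1, the second methyltransferase, fell with them by 1.54 between the WT groups, so that Ezh2 made up 62.6% ± 7.33 (SD, n = 5) of the Ezh transcripts per kilobase in mESCs and 65.8% ± 5.14 (n = 6) in MEFs, a share that did not pass the exact permutation test (adjusted p = 0.486).

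The accessory subunits, which steer PRC2 to chromatin, moved apart from each other. Jarid2, which brings PRC2 to nucleosomes that carry ubiquitylated H2A, was at 571 and 435 CPM in WT mESCs, at 286, 350.0 and 186 CPM in Atxn7l3-/- mESCs and at between 18.3 and 25.9 CPM in the 6 MEF libraries. Mtf2 is a Polycomb-like protein that binds unmethylated CG-rich DNA. It was at 559 and 543 CPM in WT mESCs, at 259, 346 and 338 CPM in Atxn7l3-/- mESCs, at 29.6, 19.3 and 26.5 CPM in WT MEFs and at 50.4, 57.3 and 31.5 CPM in MEFs labelled Atxn7l3-/-. The log2 fold changes between the WT groups were −4.47 (SE 0.30) for Jarid2 and −4.46 (SE 0.30) for Mtf2. Phf1, a second Polycomb-like gene, went the other way: it was at 13.5 and 8.92 CPM in WT mESCs and at 19.9, 30.9 and 35.1 CPM in WT MEFs (1.35, SE 0.36, adjusted p = 0.00887). Phf19, the third, was at between 2.49 and 4.66 CPM in the mESC libraries and between 6.78 and 17.6 CPM in the MEF libraries, with a log2 fold change of 1.06 (adjusted p = 0.0949) between the WT groups and 1.77 (adjusted p = 0.00576) between the groups labelled Atxn7l3-/-. Aebp2 was at 198 and 141 CPM in WT mESCs and at 166, 90.8 and 132 CPM in WT MEFs and did not pass in either comparison.

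The catalytic pair of PRC1 split in the same way. Rnf2, which encodes the main H2A ubiquitin ligase RING1B, was at 239 and 219 CPM in WT mESCs and at 91.3, 82.5 and 93 CPM in WT MEFs (−1.36, SE 0.17, adjusted p = 0.000117). Ring1, its paralogue, was at 10.9 and 13.4 CPM in WT mESCs and at 23.1, 37.9 and 31.5 CPM in WT MEFs (1.34, SE 0.35, adjusted p = 0.00779). Between the groups labelled Atxn7l3-/- Rnf2 was again lower in MEFs (−1.05, SE 0.16), while Ring1, at 12.4, 10.2 and 15.2 CPM in mESCs and 12.3, 11.6 and 18.6 CPM in MEFs, had a log2 fold change of 0.17 (adjusted p = 0.635).

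**Figure D2:**
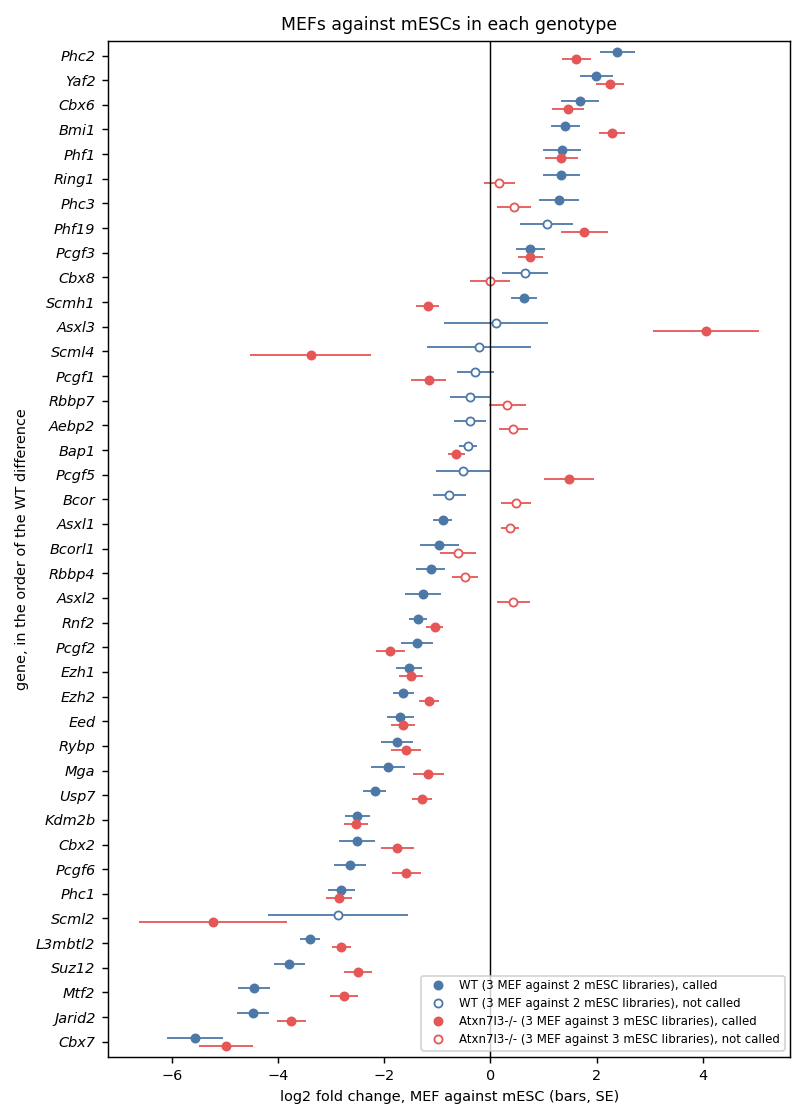
Log2 fold change of each member in MEFs against mESCs, with its SE, for the WT libraries (blue) and the libraries labelled Atxn7l3-/- (red), filled where the adjusted p is 0.05 or less. Cbx7, Jarid2, Mtf2 and Suz12 lie farthest to the low side in WT, and Phc2 and Yaf2 farthest to the high side.

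Canonical PRC1 held the member with the largest difference between the WT groups. Cbx7, a chromodomain protein that reads the methyl mark, was at 222 and 222 CPM in WT mESCs, at 105, 155 and 193 CPM in Atxn7l3-/- mESCs and at between 2.28 and 7.71 CPM in the MEF libraries. Its log2 fold change was −5.57 (SE 0.53) between the WT groups and −4.99 (SE 0.51) between the groups labelled Atxn7l3-/-. Cbx6 was at 87.4 and 60.3 CPM in WT mESCs and at 197, 352 and 164 CPM in WT MEFs (1.69, SE 0.36, adjusted p = 0.00265). Cbx2 was at 56.5 and 59.9 CPM in WT mESCs and at 5.96, 12.7 and 12 CPM in WT MEFs (−2.51, SE 0.34), while Cbx8 did not pass in either comparison. CBX proteins are the chromodomain readers of PRC1, and the paralogues for which the levels fell and rose thus differ. The same holds for the PHC proteins, whose SAM domain lets PRC1 polymerize. Phc1 was at 222 and 353 CPM in WT mESCs and at 40.6, 50.1 and 32.3 CPM in WT MEFs (−2.81, SE 0.25). Phc2 was at 42.4 and 26.8 CPM in WT mESCs and at 133, 183 and 229 CPM in WT MEFs (2.39, SE 0.33, adjusted p = 0.000235), and at 82.4, 81.5 and 134 CPM in the MEFs labelled Atxn7l3-/-. No mESC library of either gene overlapped a MEF library.

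Among the Pcgf genes, which set the type of PRC1, Pcgf6 was at 64.4 and 76.4 CPM in WT mESCs and at 9.99, 11.5 and 12.2 CPM in WT MEFs (−2.65, SE 0.30). Bmi1 (Pcgf4) was at 25.1 and 16.6 CPM in WT mESCs and at 57.3, 47.8 and 60.9 CPM in WT MEFs (1.41, SE 0.28, adjusted p = 0.00171), and at 14.8, 19.6 and 13.3 CPM in Atxn7l3-/- mESCs against 82.1, 85.8 and 64.6 CPM in MEFs labelled Atxn7l3-/- (2.28, SE 0.25). Pcgf2, the other canonical PCGF, was lower in MEFs, with log2 fold changes of −1.39 and −1.89 in the pair of comparisons. Pcgf3 was higher, with 0.75 and 0.75, and Pcgf1 and Pcgf5 passed only between the groups labelled Atxn7l3-/- (−1.17 and 1.48). Whether a member's cell type difference itself differed by genotype was tested and is given below.

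Of the 8 genes of variant PRC1, 6 were lower in WT MEFs. L3mbtl2, a subunit of the PCGF6 complex, was at 202 and 268 CPM in WT mESCs and at 22.4, 21.6 and 22.8 CPM in WT MEFs (−3.40, SE 0.19). Kdm2b, the CXXC protein that brings the PCGF1 complex to CG islands, was at 106 and 127 CPM in WT mESCs and at 22.1, 16.3 and 23 CPM in WT MEFs (−2.51, SE 0.23). Usp7, a deubiquitinase that is found with PRC1, was at 564 and 606 CPM in WT mESCs and at 137, 119.8 and 129 CPM in WT MEFs (−2.18, SE 0.21). The scaffold Mga (−1.93), Rybp (−1.76) and Bcorl1 (−0.97) were lower too, and Bcor, with −0.78 and an adjusted p of 0.0568, did not pass. Yaf2, the paralogue of Rybp, was the only one higher: at 10.2 and 10.8 CPM in WT mESCs and at 38.9, 29.7 and 56.6 CPM in WT MEFs (1.99, SE 0.31, adjusted p = 0.000425).

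The deubiquitinase Bap1 did not pass between the WT groups, at 106 and 119 CPM in mESCs and 76.9, 90.3 and 83.6 CPM in MEFs (−0.43, SE 0.17, adjusted p = 0.0587). It was lower in MEFs between the groups labelled Atxn7l3-/- (−0.64, SE 0.16, adjusted p = 0.00483), where the mESC libraries were at 94.7, 85.6 and 96.5 CPM and the MEF libraries at 58.2, 56.7 and 62.3 CPM. Its partners Asxl1 and Asxl2 were lower in WT MEFs (−0.90 and −1.27). Asxl3, the partner known from brain, was at 2.54 and 6.01 CPM in WT mESCs and at 1.55, 10.2 and 2.12 CPM in WT MEFs, which overlap. In the libraries labelled Atxn7l3-/- it was at 0.0771, 0.943 and 0.225 CPM in mESCs and at 9.5, 4.27 and 7.4 CPM in MEFs (4.07, SE 1.00, adjusted p = 0.00512), and the lowest of these mESC values rests on 3 counts. The Scm genes, which link to PHC, were uneven: Scml2, on the X chromosome, was at between 0.563 and 72.2 CPM in the mESC libraries and between 0.307 and 3.22 CPM in the MEF libraries, and Scml4 was under 1 CPM in every library.

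When the 5 mESC libraries were set against the 6 MEF libraries without regard to genotype, 17 members (41.5%) were lower in every MEF library than in every mESC library and 6 (14.6%) were higher: Phf1, Phf19, Cbx6, Bmi1, Phc2 and Yaf2. Over all genes tested these shares were 22.2% and 20.2%. The 15 proliferation genes fixed as a list moved along with the members: 11 were lower in WT MEFs and none was higher, and their CPM summed to between 2619 and 4765 in mESCs and between 898 and 2598 in MEFs. The part of the cell cycle in the difference of the members was not tested. Leaving out either WT mESC library reduced the higher members in WT MEFs from 9 to 5. A block for the replicate number took Scmh1 (adjusted p = 0.0733), Pcgf3 (0.0689) and Bcorl1 (0.0975) above the threshold. That block gives same-numbered mESC and MEF libraries a shared effect. They are separate lines and embryos, so the block cannot decide whether these genes pass.

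The promoters of members with the largest differences are shown because the groups of falling and rising genes can be compared letter by letter. Of the 41 members, 35 were found in the RefSeq promoter table (GRCm38.p6), with 48 windows that run from 250 bases before to 50 bases after an annotated start. The members' windows held a median of 23.5 CG dinucleotides, beside 7 over all 32851 windows. The E-box CACGTG, a palindrome searched on both strands at once, occurred in 20.8% of the members' windows (10 members) and in 7.15% of all windows. The sequences below are the 250 bases upstream of the start, 5′ to 3′ on the gene's strand, in lower case with CG dinucleotides in capitals, for the members with 1 window and no annotated exon in it that had the largest falls (Suz12 and L3mbtl2) and rises (Bmi1 and Ring1) in WT MEFs. They lie at chr11:79992856-79993105 (plus strand) for Suz12, chr15:81663639-81663888 (plus strand) for L3mbtl2, chr2:18676768-18677017 (plus strand) for Bmi1 and chr17:34024681-34024930 (minus strand) for Ring1.
Suz12: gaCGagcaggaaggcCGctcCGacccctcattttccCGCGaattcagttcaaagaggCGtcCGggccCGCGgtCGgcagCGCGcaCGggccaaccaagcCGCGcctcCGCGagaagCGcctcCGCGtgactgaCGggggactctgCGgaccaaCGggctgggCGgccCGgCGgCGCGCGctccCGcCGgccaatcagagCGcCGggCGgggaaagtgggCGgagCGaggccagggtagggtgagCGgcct
L3mbtl2: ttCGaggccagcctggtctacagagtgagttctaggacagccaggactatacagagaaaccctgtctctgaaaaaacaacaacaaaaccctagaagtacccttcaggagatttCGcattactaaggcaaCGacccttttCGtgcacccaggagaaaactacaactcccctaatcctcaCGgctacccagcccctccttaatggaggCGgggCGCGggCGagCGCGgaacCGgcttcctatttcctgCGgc
Bmi1: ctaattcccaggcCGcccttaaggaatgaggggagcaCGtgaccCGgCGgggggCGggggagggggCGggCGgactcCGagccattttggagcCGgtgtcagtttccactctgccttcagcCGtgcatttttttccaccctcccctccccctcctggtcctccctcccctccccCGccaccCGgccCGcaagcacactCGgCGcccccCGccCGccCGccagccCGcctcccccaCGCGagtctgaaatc
Ring1: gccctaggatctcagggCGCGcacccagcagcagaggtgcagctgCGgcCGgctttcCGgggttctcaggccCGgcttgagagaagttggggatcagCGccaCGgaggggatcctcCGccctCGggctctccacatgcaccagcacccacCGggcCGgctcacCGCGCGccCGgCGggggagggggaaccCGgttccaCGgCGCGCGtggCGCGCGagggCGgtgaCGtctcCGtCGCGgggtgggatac
Suz12 held 37 CG dinucleotides, Ring1 30, Bmi1 21 and L3mbtl2 13, so CG number did not order the genes that fell and the genes that rose. The Bmi1 sequence holds 1 CACGTG, which starts 215 bases upstream of the start, and the letters were not found in the other sequences shown.

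Within each family the share of transcripts that each paralogue provides was then compared, after scaling each count by the gene's deposited median transcript length, since levels of different genes can be compared only per length. For 22 shares in 8 families the mESC and MEF libraries (5 and 6, both genotypes) were set against each other with a 2-sided exact permutation test over 462 arrangements, whose smallest p is 0.00216, with Benjamini-Hochberg adjustment over the 22. Of these, 14 differed. The shares of a family add up to a fixed total, so a rise and a fall within it are not separate results. No other gene families were set beside these, and 53.9% of all genes passed between the WT cell types. Cbx7 provided 61.9% ± 5.03 (SD, n = 5) of the Cbx2, Cbx6, Cbx7 and Cbx8 transcripts per kilobase in mESCs and 1.76% ± 0.856 (n = 6) in MEFs, while Cbx6 went from 31.6% ± 5.14 to 94.6% ± 1.28. Phc1 went from 58.5% ± 8.26 to 6.11% ± 1.57 and Phc2 from 28.1% ± 6.38 to 77.2% ± 8.15. Mtf2 provided 97.4% ± 0.353 of the Polycomb-like transcripts in mESCs and 54.4% ± 13.2 in MEFs, where Phf1 provided 31.0% ± 12.9. Rybp went from 91.6% ± 2.78 of the Rybp and Yaf2 transcripts to 46.2% ± 11.4, and Bmi1 from 11.4% ± 2.07 to 29.4% ± 3.23 of the 6 Pcgf genes. In each of these the libraries of the cell types did not overlap. Rnf2 remained the major Ring gene, at 97.6% ± 0.459 in mESCs and 90.9% ± 4.12 in MEFs, a difference that passed (adjusted p = 0.0110 by the exact permutation test). The shares of Asxl1 (91.3% ± 1.15 and 92.0% ± 1.97, adjusted p = 0.585 by the same exact test), Phc3, Pcgf3, Pcgf5, Cbx8 and Ezh2 did not pass. The size of a share depends on the length used: with the longest coding transcript in place of the deposited median, 16 of 22 shares differed, with Cbx8, Pcgf3 and Phc3 among them and without Pcgf1. The leading paralogue could change too. By that length Phf1 (45.0%) lay above Mtf2 (41.6%) in MEFs, and Rybp made up 11.6% in MEFs. In mESCs Pcgf3 (13.5%) lay under Pcgf2 (35.1%) and Pcgf6 (30.8%), against 48.2% by the deposited median. The levels of the core PRC2 genes per kilobase depend on it as well. In WT mESCs Suz12 was the highest by either length, at 1585 CPM per kilobase of median transcript length and at 229 CPM per kilobase of longest coding transcript, while Ezh2 was at 185 and 57.5.

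**Figure D3:**
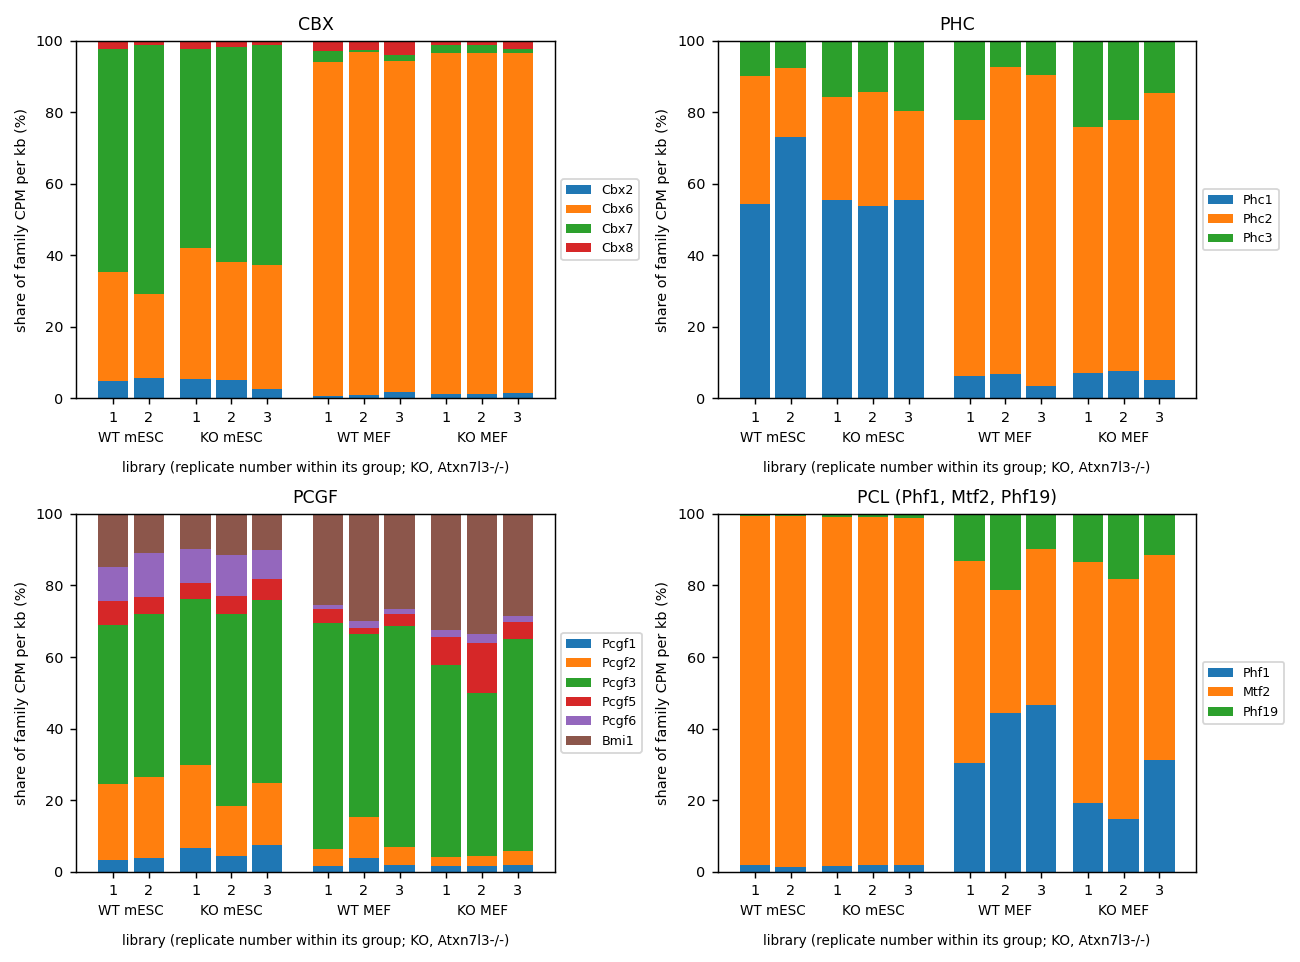
Stacked bars give the share of each paralogue (percent of the CPM per kilobase of its family) in each library, for the Cbx, Phc, Pcgf and Polycomb-like (PCL) families, with KO for the libraries labelled Atxn7l3-/-. Cbx7 and Phc1 lead their families in mESCs, at 61.9% and 58.5% on average, and Cbx6 and Phc2 lead in MEFs, at 94.6% and 77.2%.

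The comparison within mESCs asked which Polycomb genes change with loss of Atxn7l3. Scmh1 was higher and Asxl1 was lower in Atxn7l3-/- mESCs, 2 of the 41 members, beside 6.96% of all 17800 genes tested (3.08% higher, 3.88% lower). Scmh1, a Scm homologue that binds PHC and lies on chromosome 4 (120405281 to 120530186, mm10), was at 45.9 and 35.7 CPM in WT libraries and at 111, 92.4 and 90.8 CPM in Atxn7l3-/- libraries. The groups did not overlap, and the log2 fold change was 1.32 (SE 0.22, adjusted p = 0.0270). Asxl1, the main partner of BAP1, on chromosome 2 (153345845 to 153404007), was at 153 and 187 CPM in WT libraries and at 91.6, 106 and 94.1 CPM in Atxn7l3-/- libraries (−0.76, SE 0.18, adjusted p = 0.0473). The next smallest p-values belonged to Mtf2 (−0.76, adjusted p = 0.0593), Asxl3 (−3.31, adjusted p = 0.0658) and Bcor (−1.06, adjusted p = 0.0794), none of which passed. Mtf2 and Asxl3 have their values above. Bcor, a corepressor of the PCGF1 complex on the X chromosome, was at 138 and 80.2 CPM in WT libraries and at 49.6, 67.6 and 35.6 CPM in Atxn7l3-/- libraries.

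The core subunits did not pass in mESCs. Ezh2 was at 116, 122 and 124 CPM in Atxn7l3-/- libraries, all under the WT libraries (−0.36, SE 0.19, adjusted p = 0.244). Suz12 had a log2 fold change of −0.61 (SE 0.23, adjusted p = 0.132), and Eed, at 198, 173 and 237 CPM in Atxn7l3-/- libraries, one of 0.08 (SE 0.21, adjusted p = 0.821). The values were −0.26 for Rnf2 (adjusted p = 0.373), 0.10 for Ring1 (adjusted p = 0.851) and −0.23 for Bap1 (adjusted p = 0.424). At an unadjusted p under 0.05 there were 12 members, 2 higher and 10 lower, beside 29.8% of all genes. The median of the members was −0.35 and that of all genes 0.04, and 31 of the 41 estimates were negative. Of the 15 proliferation genes 13 had a negative estimate, with a median of −0.43, Plk1 passed as lower, and for 9 every Atxn7l3-/- library lay under both WT libraries. Their part in the differences of the members was not tested. Every Atxn7l3-/- library lay under both WT libraries for 18 members and above both for 4, beside 26.7% and 23% of all genes. When 1 library at a time was left out, the log2 fold change ran from 1.13 to 1.52 for Scmh1 and from −0.89 to −0.63 for Asxl1. Fits without a WT library leave 1 in that group and cannot decide whether a gene passes. Without Atxn7l3-/- library 1 neither gene passed (Scmh1, adjusted p = 0.0846 by edgeR), and only 3 of all 17530 genes did. Scmh1 passed without Atxn7l3-/- library 2 or 3, and Asxl1 without library 2. With the presence of Y-linked transcripts as a covariate, neither Scmh1 (1.13, adjusted p = 0.104 by edgeR) nor Asxl1 (−0.83, adjusted p = 0.121) passed. Only 13 of all 19326 genes passed in that fit, so it says little about either gene.

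**Figure D4:**
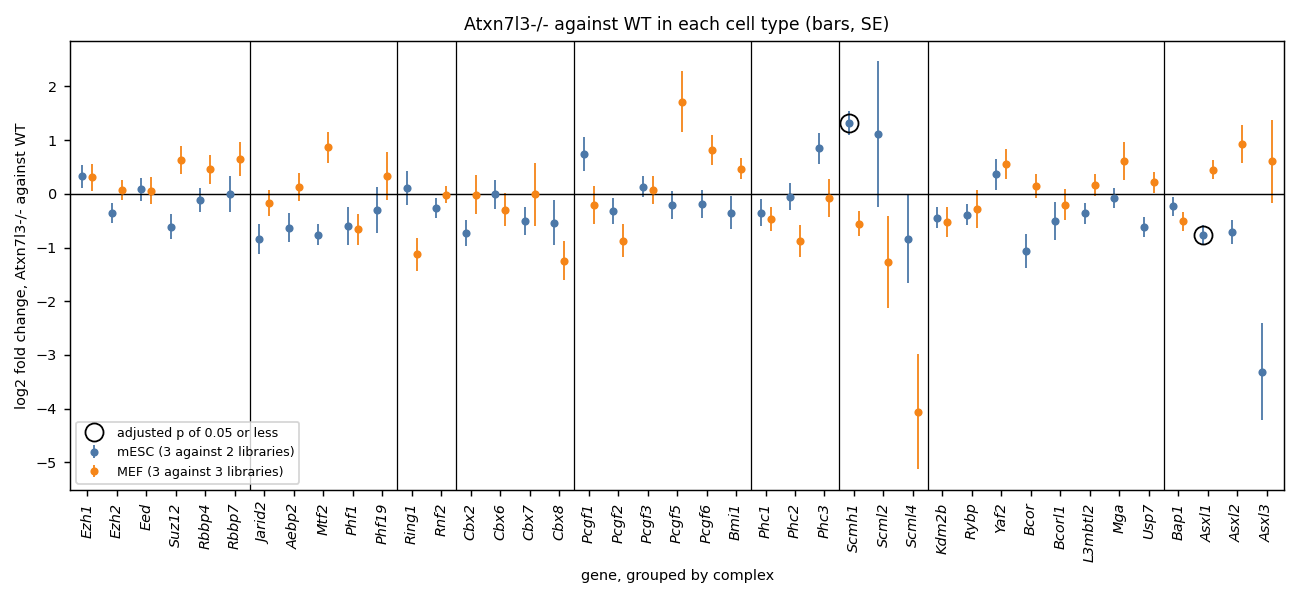
Log2 fold change of each member in the libraries labelled Atxn7l3-/- against WT, with its SE, in mESCs (blue) and in MEFs (orange), with a circle around members that passed. Scmh1 (1.32) and Asxl1 (−0.76) are the ones that passed in mESCs, and no member did in MEFs.

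In MEFs no member passed in the main fit, which has no replicate block, beside 9.41% of all 15958 genes tested (5.01% higher, 4.39% lower). The smallest adjusted p was 0.0612, and 12 members had an unadjusted p under 0.05 (6 higher and 6 lower), beside 32.4% of all genes. DESeq2 called 1 member higher (Pcgf5) and 3 lower (Ring1, Cbx8 and Scml4), beside 8.15% and 11.9% of all genes, and a fit blocked on the replicate number called Phc2 (−0.89, adjusted p = 0.0487) and Scml4 (−4.37, adjusted p = 0.0450), beside 5.5% of all genes higher and 8.49% lower. As the Atxn7l3 transcript remained in these libraries, the directions below are those of the labelled groups. Scml4 had counts of 44, 13 and 24 in WT libraries and 4, 0 and 0 in those labelled Atxn7l3-/-. Ring1, given above, had a log2 fold change of −1.13 (SE 0.31, adjusted p = 0.0652). Cbx8, a reader that occurs in canonical PRC1, was at 8.53, 13.2 and 9.84 CPM in WT libraries and at 4.14, 3.58 and 5.63 CPM in those labelled Atxn7l3-/- (−1.25, SE 0.37, adjusted p = 0.0739). Pcgf5, which serves variant PRC1, was at 25.2, 8.5 and 23.1 CPM in WT libraries and at 56, 103 and 31 CPM in the others (1.72, SE 0.56, adjusted p = 0.0936). Bap1 had −0.51 (SE 0.17, adjusted p = 0.0938). The groups did not overlap in any of the last 4 genes. Every library labelled Atxn7l3-/- lay above every WT library for 8 members and under every WT library for 7, beside 20.1% and 19.7% of all genes. The remaining core genes had log2 fold changes of 0.07 (Ezh2, adjusted p = 0.827), 0.06 (Eed, adjusted p = 0.884), 0.63 (Suz12, adjusted p = 0.148) and −0.01 (Rnf2, adjusted p = 0.957). The median of the members was 0.06 and that of all genes −0.06. Of the 15 proliferation genes 13 had a positive estimate, with a median of 0.36, and Mki67 passed as higher.

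The MEF differences moved with the GC content of the transcripts. Across the 41 members the log2 fold change had a Spearman correlation of −0.63 with GC content, and across 15944 tested genes one of −0.39, as a description of points that share the same libraries. Ring1 has 61.7% GC, Phc2 60.8% and Cbx8 58.9%, whereas Suz12 has 38.8% and Pcgf5 42.2%. After a correction for GC content Ring1 had a log2 fold change of −0.08, Phc2 0.08, Cbx8 −0.50, Bap1 −0.10, Suz12 0.14 and Pcgf5 1.26. In mESCs the Spearman correlation was −0.02 across members and 0.17 across 17778 tested genes. After the GC correction it was −0.38 across members in mESCs and 0.10 across members in MEFs. With that correction Scmh1 passed in mESCs and Asxl1 did not. The levels of the epithelial and mesothelial markers in these MEF libraries are given above. Their part in the differences of the members was not tested.

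Whether the effect of the genotype differed between the cell types was tested with the interaction term of the fit of all 11 libraries. It passed for 5 of the 41 members, beside 11.4% of all genes tested (6.14% higher in MEFs, 5.27% lower). Scmh1 was the one with a negative difference (−1.81, SE 0.32, adjusted p = 0.0105): its CPM in MEFs were 60.8, 58.2 and 70.4 in WT libraries and 39.2, 35.7 and 54.9 in those labelled Atxn7l3-/-, against the rise in mESCs. The difference was positive for Asxl1 (1.27, SE 0.25, adjusted p = 0.0137), which was at 100.2, 82.5 and 91.1 CPM in WT MEFs and at 121, 132 and 124 CPM in the libraries labelled Atxn7l3-/-. Its paralogue Asxl2 was at 92.1 and 98.3 CPM in WT mESCs, 41.2, 66 and 61.7 CPM in Atxn7l3-/- mESCs, 57.4, 22.8 and 38.1 CPM in WT MEFs and 79.6, 85.1 and 63.4 CPM in MEFs labelled Atxn7l3-/- (1.70, SE 0.46, adjusted p = 0.0406). For the PRC2 genes Mtf2 (1.69, SE 0.38, adjusted p = 0.0216) and Suz12 (1.30, SE 0.38, adjusted p = 0.0498) the libraries labelled Atxn7l3-/- were under WT in mESCs and above WT in MEFs, without overlap in either. For the other core genes the difference did not pass: 0.49 for Ezh2, 0.05 for Eed, 0.31 for Rnf2, −1.17 for Ring1 and −0.22 for Bap1, with adjusted p of 0.240, 0.935, 0.379, 0.108 and 0.556. The median of the members was 0.36 and that of all genes −0.09. The proliferation list moved with them: 13 of its 15 differences were positive, with a median of 0.99, and Mki67, Top2a and Ccnb1 passed. Its part in the differences of the members was not tested.

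Scmh1 and Asxl1 passed in every fit that left out a library other than a WT mESC library. Fits without a WT mESC library leave 1 in that group and cannot decide whether a gene passes. Among the other fits Mtf2 was lost without Atxn7l3-/- mESC library 1. Asxl2 passed there only without Atxn7l3-/- mESC library 2, WT MEF library 1 or 2, or MEF library 3 labelled Atxn7l3-/-. Suz12 passed there only without Atxn7l3-/- mESC library 2, WT MEF library 1 or MEF library 3 labelled Atxn7l3-/-. In the fit blocked on the replicate number Scmh1 and Asxl1 passed (−1.76 and 1.25, adjusted p = 0.0171 and 0.0314), Mtf2 (0.0516), Asxl2 (0.0772) and Suz12 (0.0961) did not, and Asxl3 did. As that block joins same-numbered libraries of different cell types, it cannot decide whether these genes pass. After the GC correction the differences of 3 core genes that had not passed changed sign, to −0.09 for Ezh2, −0.29 for Rnf2 and 0.11 for Ring1. Scmh1, Asxl1 and Mtf2 passed with it, with Suz12 at 0.70 (adjusted p = 0.148) and Asxl2 at 1.23 (adjusted p = 0.0680), and with Y-linked transcripts as a covariate Scmh1 still passed and the other 4 did not.

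**Figure D5:**
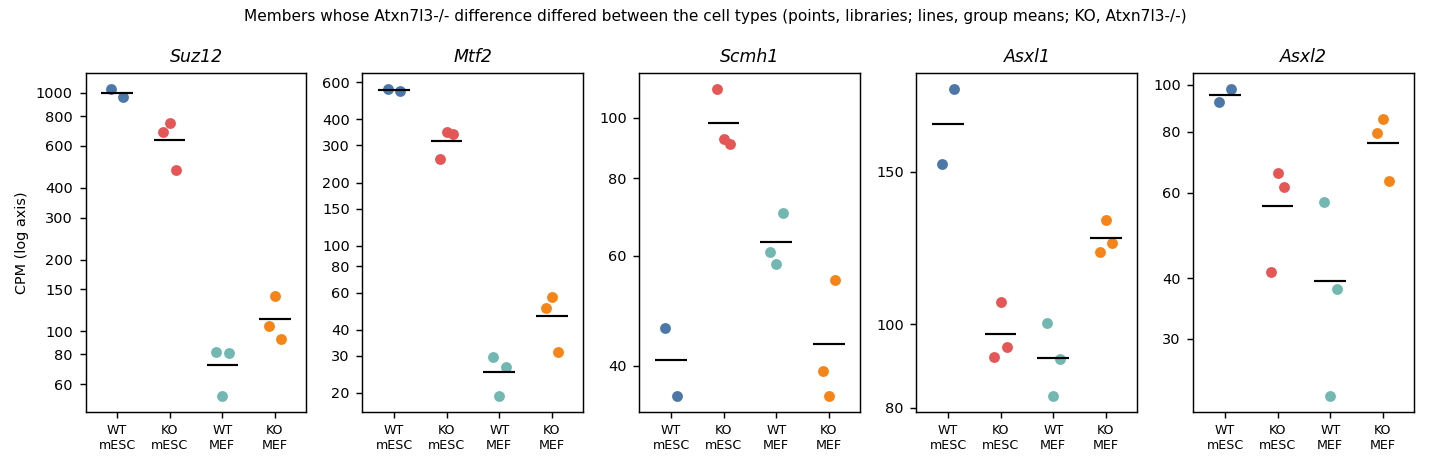
CPM (log axis) in each of the 11 libraries (points) with the group means (lines) for the 5 members whose genotype effect differed between MEFs and mESCs, with KO for the libraries labelled Atxn7l3-/-. Scmh1 is higher in Atxn7l3-/- mESCs and lower in the MEF libraries labelled Atxn7l3-/-, and Asxl1, Asxl2, Mtf2 and Suz12 show the reverse order.

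Lists of other Polycomb-related genes were counted as context, with the share of all genes in each comparison given above. In mESCs 1 of 3 tested further PRC2 genes was higher, Lcorl (1.16), and 1 lower, Epop (−1.52), which encodes an elongin-binding partner of PRC2. None of 20 further PRC1 genes, 7 BAP1 partners, 7 other H2A deubiquitinases or 3 H3K27 demethylases passed. In MEFs Usp46 (1.41) among 6 other H2A deubiquitinases and Tfdp1 (0.80) among 19 further PRC1 genes were higher. Between the WT cell types 4 of 20 further PRC1 genes were higher in MEFs and 8 lower, with a median log2 fold change of −0.09. Of 7 BAP1 partners 2 were higher and 2 lower, with a median of −0.13. Kdm6a (−1.11) and Kdm6b (−1.23), which remove the methyl mark of PRC2, were lower in WT MEFs, as was Epop (−6.90). Usp16 (0.54), an H2A deubiquitinase, was higher, and Usp44 (−4.06) and Usp46 (−0.88) were lower. In the interaction 4 of 7 other H2A deubiquitinases passed, beside 11.4% of all genes: Usp12 (1.87), Usp46 (1.66) and Usp16 (1.03) had positive and Usp44 (−4.19) a negative difference. Of the genes that Polycomb complexes are known to hold silent in mESCs, 25 were tested in mESCs, with Hoxa9 higher (2.64) and T lower (−4.29), and 22 in MEFs, where 2 were higher and 3 lower (22.7% called, beside 9.41% of all genes). At an unadjusted p under 0.05 there were 10 of these 25 in mESCs, 8 higher and 2 lower, beside 29.8% of all genes. Their median log2 fold change in mESCs was 0.98, and that of all genes 0.04. Every Atxn7l3-/- mESC library lay above both WT libraries for 13 of the 25 and under both for 4, beside 23% and 26.7% of all genes. In MEFs there were 17 of 22 at an unadjusted p under 0.05, 3 higher and 14 lower, beside 32.4% of all genes, with a median of −2.79. Gata6, at 4.49, 12.2 and 12 CPM in WT MEFs, was at 286, 382 and 172 CPM in those labelled Atxn7l3-/-, and Hoxa9, at 4.02, 20.5 and 6.32 CPM in WT MEFs, was at 0.265, 0.0256 and 0.689 CPM in them. Between the WT cell types 17 of 33 such targets were higher in MEFs and 6 were lower, beside 26.8% and 27.1% of all genes, with a median of 2.92. Between the groups labelled Atxn7l3-/- 11 were higher and 15 lower, beside 29.5% and 31.5%, with a median of −1.83. In the interaction 2 were higher (Gata4 and Gata6) and 10 lower, beside 6.14% and 5.27% of all genes.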

How the data were processed

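Poly(A) RNA was sequenced (stranded libraries) from 5 mESC and 6 MEF libraries. The authors removed adapters with cutadapt 1.10, mapped reads to mm10 with STAR 2.5.3a and counted them per gene with HTSeq 0.6.1p1, and these raw counts were deposited. The annotation and the strand setting of the counting are not given in the sources used here, so reads of overlapping or antisense genes cannot be told apart. The deposited tables also hold a signal, the counts divided by DESeq2 1.16.1 size factors and by the median transcript length in kilobases, which served only for the expression rule, and that length. The fold changes and p-values of the authors' own comparisons were not used, and 1 WT mESC library that the study set aside is not analysed here.

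Raw counts were fitted with edgeR 4.0.16 (filterByExpr, TMM, quasi-likelihood test, Benjamini-Hochberg adjustment over all genes tested, called at 0.05), within each cell type for the genotype comparisons and over all 11 libraries for the others, in R 4.3.3. An SE is the log2 fold change divided by the root of its F statistic. Libraries are separate lines or embryos by the labels. Groups held 2, 3, 3 and 3 libraries, with 34515342 to 49602605 counts each. The members and the lists were chosen with earlier results of these data known. Values of every library are given for the members called in a comparison, up to 12 by size, or else for the 5 with the smallest p, and for Ezh2, Eed, Suz12, Rnf2, Ring1 and Bap1. Lists of other genes are given by counts with at most 3 named genes for each direction.

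Replicate numbers are shared between groups. In MEFs the deviations of same-numbered libraries from their group means correlated at 0.473, 0.161 and 0.240. Those of the other MEF pairs correlated at −0.262 to 0.0516. In mESCs same-numbered libraries correlated at 0.008 and −0.172. The labels state no pairing, and 3 libraries in a group allow few matchings, so a pairing in MEFs remains uncertain. The main fits have no block, and the block is an alternative. On counts simulated from the real libraries, the test recovered 79 of 91 genes changed 4-fold in the mESC comparison, 50 of 93 in the MEF comparison and 58 of 88 between WT cell types, with 27, 8 and 5 false calls. Alternatives were another normalization (RLE), no filter, DESeq2 1.42.0, a replicate block, a correction for GC content (lowess, span 0.3), 1 fit of all libraries, genes of either table, leaving out each library and, added after the data were seen, Y-linked transcripts as a covariate and another transcript length.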

Additional observations from a re-analysis of the deposited data

Results flagged for a closer look

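In 5 of the 41 members (12.2%) the effect of the genotype differed between MEFs and mESCs by the interaction term of the edgeR fit of all 11 libraries. Over all genes tested 11.4% passed, so the number of members lay near the background. The difference on the log2 scale (MEF minus mESC) was −1.81 for Scmh1, 1.70 for Asxl2, 1.69 for Mtf2, 1.30 for Suz12 and 1.27 for Asxl1. For Suz12, Mtf2, Asxl1 and Asxl2 every Atxn7l3-/- mESC library lay under every WT mESC library and every MEF library labelled Atxn7l3-/- lay above every WT MEF library. For Scmh1 the order was the opposite in both cell types. In the same MEF libraries Atxn7l3 itself kept 55.5 to 73.3 CPM against 86.6 to 117 CPM in WT. The epithelial and mesothelial markers, mostly Upk3b and Msln, summed to 2519 to 3730 CPM against 15.0 to 38.1 CPM. The part of Atxn7l3 and of these markers in the differences was not tested.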

How the results depend on the processing

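No member or paralogue share that passed changed direction under the alternatives run. Values that had not passed did: with the GC correction Phc2 in MEFs went from −0.88 to 0.08 and, for the difference between cell types, Ezh2, Rnf2 and Ring1 changed sign. The change in the share of Pcgf5 (0.493 points) was −2.69 points in WT libraries and ran from −1.11 to 1.31 points with 1 library left out, and that of Ezh2 (3.18 points) was −1.35 points in WT libraries. Counts of members called are given as higher and lower, with the genes called among all genes fitted in brackets. In mESCs (1 and 1, beside 1238 of 17800) they were 2 and 5 without a filter (2995 of 31107) and 1 and 5 with DESeq2 (3389 of 31107). They were 1 and 0 with the GC correction (1271 of 17800). With Y-linked transcripts as a covariate, an alternative chosen after seeing the data, they were 0 and 0 (13 of 19326). In MEFs (0 and 0, beside 1501 of 15958) they were 1 and 3 with DESeq2 (8.15% of all genes higher and 11.9% lower). They were 2 and 6 in 1 fit of all 11 libraries (3569 of 19326) and 2 and 1 with the Y-linked covariate (2792 of 19326). For the difference between cell types (4 and 1, beside 2205 of 19326) they were 8 and 2 with DESeq2 (4188 of 26398). With the Y-linked covariate they were 1 and 1 (821 of 19326). Why these counts changed was not tested. Leaving out 1 library at a time gave 0 to 1 higher and 0 to 3 lower members in mESCs, 0 to 0 and 0 to 2 in MEFs, 5 to 9 and 19 to 23 between the WT cell types, 7 to 9 and 21 to 23 between the groups labelled Atxn7l3-/-, 0 to 6 and 0 to 1 for the difference, and 14 to 15 paralogue shares. These fits leave the WT mESC group with 1 library in turn, which is then assumed to vary like the others. In WT libraries alone the change in share was −1.11 points for Pcgf1 and 14.5 points for Bmi1, against −3.08 and 18.0 points over both genotypes.

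With the replicate number as a block, 2 members were higher (Scml2 and Scmh1) and 1 lower (Asxl3) in mESCs, beside 1435 of 17800 genes. The numbers do not pair the mESC libraries. With the GC correction added the counts of members were the same, beside 1186 of 17800. The block gave 0 higher and 2 lower members in MEFs (2232 of 15958). It gave 2 higher and 1 lower for the difference between cell types (1489 of 19326). With the GC correction added that difference had 1 higher and 1 lower (1132 of 19326). Between the WT cell types the block left 7 higher and 20 lower members (9845 of 19326). Between the groups labelled Atxn7l3-/- it left 9 and 22 (11630 of 19326). In these fits of all 11 libraries the block joins mESC and MEF libraries that share only a number, so it decides no call. With 2 or 3 libraries in a group, changes of 4-fold or less may be missed: in simulated MEF counts 53.8% of 4-fold changes were recovered. In simulated mESC counts 27 false calls stood beside 79 recovered changes of 4-fold and 109 of 16-fold, so single calls in mESCs may be false.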
